A study of Sus scrofa with 24 samples.

Results

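The suckling period was described by setting 6 piglets at 28 days post natum (28 dpn) against 6 at 1 day post natum (1 dpn), 12 of the 24 arrays of the series, chosen by the stage label. The mothers of all animals were German Landrace gilts that ate a high protein (HP) diet while pregnant, so the diet was common to both ages and its effect is not analysed here. Each stage drew on the offspring of 3 gilts, and mother and sex were not given per animal. Each sample was read on 1 Affymetrix Porcine Genome array, which gives 1 scaled signal in arbitrary units per probe set. Animals are numbered 1 to 6 within an age in the order of the samples, and the numbers pair nothing.

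Liver is the tissue on the sample labels, whereas the title of the series names muscle. Defining transcripts of skeletal muscle were among the brightest on every array of both ages. Muscle creatine kinase, CKM, gave 61679 to 79616 at 28 dpn, against 53813 to 73817 at 1 dpn. Fast troponin I, TNNI2, gave 51994 to 80242 at 28 dpn, against 45777 to 72916 at 1 dpn. The brightest probe set of any array lay between 76496 and 98033 at 28 dpn, and between 73686 and 101178 at 1 dpn, so these genes sat near the top of the scale. Albumin, ALB, the main product of liver cells, gave 63.6 to 1043 at 28 dpn, against 111 to 4477 at 1 dpn, and apolipoprotein APOA1 gave 1823 to 2994 at 28 dpn, against 2029 to 5805 at 1 dpn. The samples are therefore called by age and by no tissue name.

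In the weeks after birth skeletal muscle of the pig changes from a tissue built in the uterus to one that carries the animal and burns milk fat and glycogen. Its fibres swap developmental for adult myosins, the sarcoplasmic reticulum that releases calcium for contraction spreads through the fibre, and enzymes of glycogen breakdown and glycolysis accumulate in fast fibres. Fibre number is largely set before birth, and satellite cells go on dividing and add nuclei to the growing fibres.

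The 1 dpn arrays were of 2 kinds. The GAPDH control has probe sets at both ends of the transcript, and its 5′ signal over its 3′ signal was 1.07 to 1.29 at 28 dpn. The ratio is a sign of how intact transcripts were or how far they were copied, and which of these set it was not tested. At 1 dpn animals 1, 2 and 3 gave ratios of 0.111, 0.296 and 0.254, whereas those of the remaining 3 animals were 1.14, 0.841 and 1.04. The same 3 arrays were apart for the EF1A control, with ratios of 0.0963 to 0.135, against 0.670 to 0.703 in the other 3 of 1 dpn and 0.638 to 0.696 at 28 dpn. A second GAPDH control did not set them fully apart from 28 dpn, with 0.424 to 0.616 in these 3, 0.907 to 0.996 in the other 3 of 1 dpn and 0.614 to 0.736 at 28 dpn. For the actin control these 3 gave 0.032 to 0.037, the other 3 of 1 dpn 0.098 to 0.149 and 28 dpn 0.163 to 0.192. By actin the other 3 of 1 dpn thus also lay below 28 dpn, and leaving out the low 5′ arrays does not remove that difference. The 3 are called the low 5′ arrays. The bacterial spike-in bioB also moved with age, at 758 to 1158 at 28 dpn, against 1184 to 2006 at 1 dpn, and its part in any result was not tested. Every change was therefore fitted again without the low 5′ arrays, and a change is said to hold where it passed in the same direction in that fit too. That fit keeps only 3 arrays of 1 dpn. A call can thus also be lost through a larger standard error, with the difference little changed.

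Over 23935 probe sets, limma at an adjusted p of 0.05 called 2767 higher at 28 dpn (11.6%) and 2178 lower (9.1%), and 1695 and 926 of these differed by at least 2-fold. Each of 6765 genes was read by its brightest probe set: 898 were higher (13.3%) and 905 lower (13.4%), with a median log2 difference over all genes of -0.02. Of these, 511 higher and 444 lower genes held. Counts of called genes within a list are to be read against the shares of 13.3% and 13.4%. Counts of genes that held are to be read against 511 higher and 444 lower of 6765. Without the low 5′ arrays 8.71% of genes were called higher and 8.56% lower, and 213 genes were called only there. The 15 largest rises and 15 largest falls were named among genes that held, so holding was a condition of naming them. They include MYH2, CAPN3, GAMT, STBD1, BCAT2, CCNG1, HSPB7, HES1, PLAGL1 and CDKN3. In 845 called genes the 6 signals of 28 dpn did not overlap the 6 of 1 dpn, and over all genes, called or not, 12.9% were apart in this way. Differences are log2 of 28 dpn over 1 dpn with the standard error of the fit, 6 animals per age unless said otherwise. Adjusted p-values cover all probe sets and treat animals as independent, although some share a mother.

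**Figure D1:**
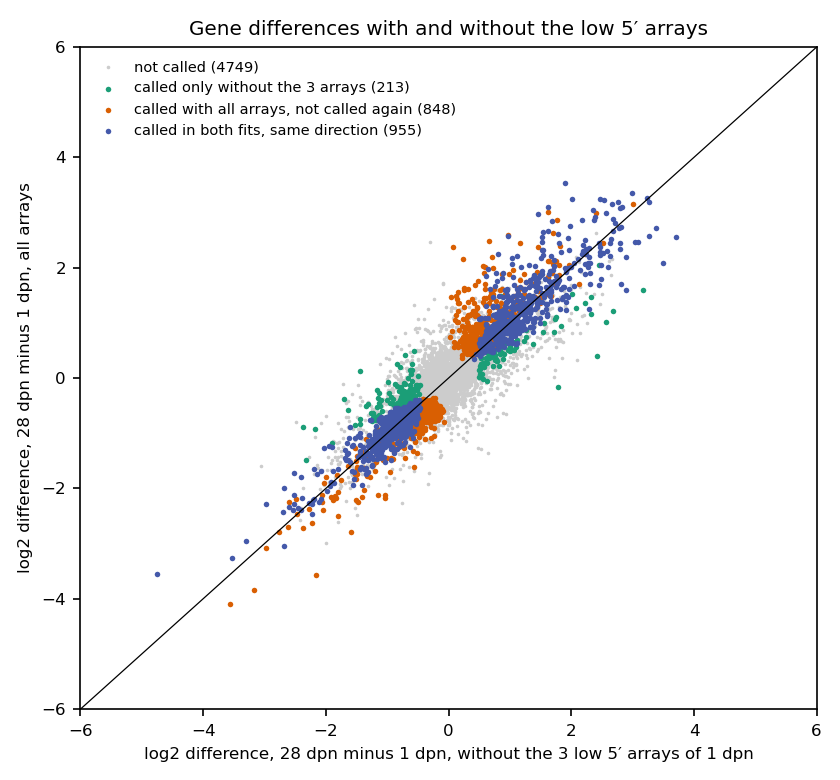
Log2 difference between 28 dpn and 1 dpn for 6765 genes, in the fit of all arrays (vertical) and without the 3 low 5′ arrays of 1 dpn (horizontal), with the line of equality. Of the 955 genes called in both fits some lie near the line, such as MYH2 (3.19 with all arrays and 3.26 without the low 5′ ones), and some lie well off it, such as CAPN3 (3.54 and 1.90).

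Contractile genes changed in a few members, and most did not pass. Of 4 measured myosin heavy chains 1 rose, MYH2, the fast oxidative-glycolytic IIA isoform. Its signal ran from 61130 to 83734 with a median of 69183 at 28 dpn, against 1851 to 18637 with a median of 9983 at 1 dpn. All 6 animals of 28 dpn lay above all 6 of 1 dpn, and the difference was 3.19 ± 0.43 (adjusted p = 1.8e-05) with all arrays and 3.26 without the low 5′ arrays. Over the whole series the geometric mean of MYH2 was 7754 at 94 days post conception, 7653 at 1 dpn, 69998 at 28 dpn and 71827 at 188 dpn, so that a step lay inside the suckling weeks. The means at 28 and 188 dpn lie near the top of the scale, where a further rise may not show. The slow myosin MYH7, the brightest of the list by its mean over all 24 arrays, the sense in which a gene is called the brightest of a list here, had means of 52058 at 28 dpn and 48698 at 1 dpn, a difference of 0.10 ± 0.14 (adjusted p = 0.70). Fast light chain MYL1, slow light chain MYL2, fast troponin TNNC2 and slow troponin TNNT1 did not pass either, with differences of 0.17 ± 0.12, 0.13 ± 0.13, -0.06 ± 0.13 and 0.28 ± 0.15. MYL1 and MYL2 read 65997 to 86177 and 56314 to 73900 at 28 dpn, near the top of the scale, where a rise may not show. Whether this hid a change was not tested.

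Among 16 thin filament genes 6 rose and 1 fell, and 3 of the rises held. Tropomodulin TMOD4, which caps the pointed ends of thin filaments, gave 23263 to 29126 at 28 dpn, against 3441 to 16377 at 1 dpn, a difference of 1.74 ± 0.27 (adjusted p = 9.8e-05). Nebulin NEB, the ruler along the thin filament, was 2.00-fold higher, at 38070 to 43341 at 28 dpn and 16973 to 24026 at 1 dpn. Both held, and in both the ages did not overlap. The cardiac troponin T gene TNNT2 was the third that held, at 196 to 373 at 28 dpn, against 21.3 to 88.7 at 1 dpn. As its 1 dpn mean of 48.8 lay under the background level of 74.7, it was at least 3.21-fold higher at 28 dpn, while its mean at 94 days post conception was 3041. Fast troponin TNNT3 and the tropomyosins TPM2 and TPM1 rose by 0.88 ± 0.22, 0.74 ± 0.20 and 0.62 ± 0.17 and did not hold, with 0.35, 0.31 and 0.34 without the low 5′ arrays. The mean of probe sets gave 0.41 for TPM2 and 0.35, not called, for TPM1.

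Of 21 Z-disc and giant sarcomere genes 5 rose, 4 of which held, and the other 16 did not pass. XIRP2, an actin-binding protein of the intercalated disc and myotendinous junction, gave 15826 to 21978 at 28 dpn, against 2440 to 10494 at 1 dpn (2.15 ± 0.34, adjusted p = 9.8e-05). The M-band protein MYOM2 gave 29642 to 41991 at 28 dpn, against 3552 to 18660 at 1 dpn (1.83 ± 0.30), and 1.04 without the low 5′ arrays. At 1 dpn its low 5′ arrays gave 3552 to 7566 and the other 3 arrays 15473 to 18660, so that the 1 dpn animals fell into 2 groups along the 5′ ratio. Its relative MYOM1 rose by 0.88 ± 0.17, with 1.15 without the low 5′ arrays. Titin TTN rose by 0.89 ± 0.17 on its brightest probe set, and the mean of its 2 probe sets gave 0.29 and was not called. MYBPC1, slow myosin-binding protein C, rose by 1.61 ± 0.34 and did not hold (0.59), with 1 dpn signals of 4487 to 5623 in the low 5′ arrays and 19634 to 21358 in the other 3. Outside these lists CMYA5, a large protein of the costamere, was 7.00-fold higher with ages apart (8719 to 13281 at 28 dpn, against 1017 to 2106 at 1 dpn), and SYNM, the intermediate filament protein synemin, rose by 2.61 ± 0.30. Both were named as large rises that held, so that holding was a condition of naming them.

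**Figure D2:**
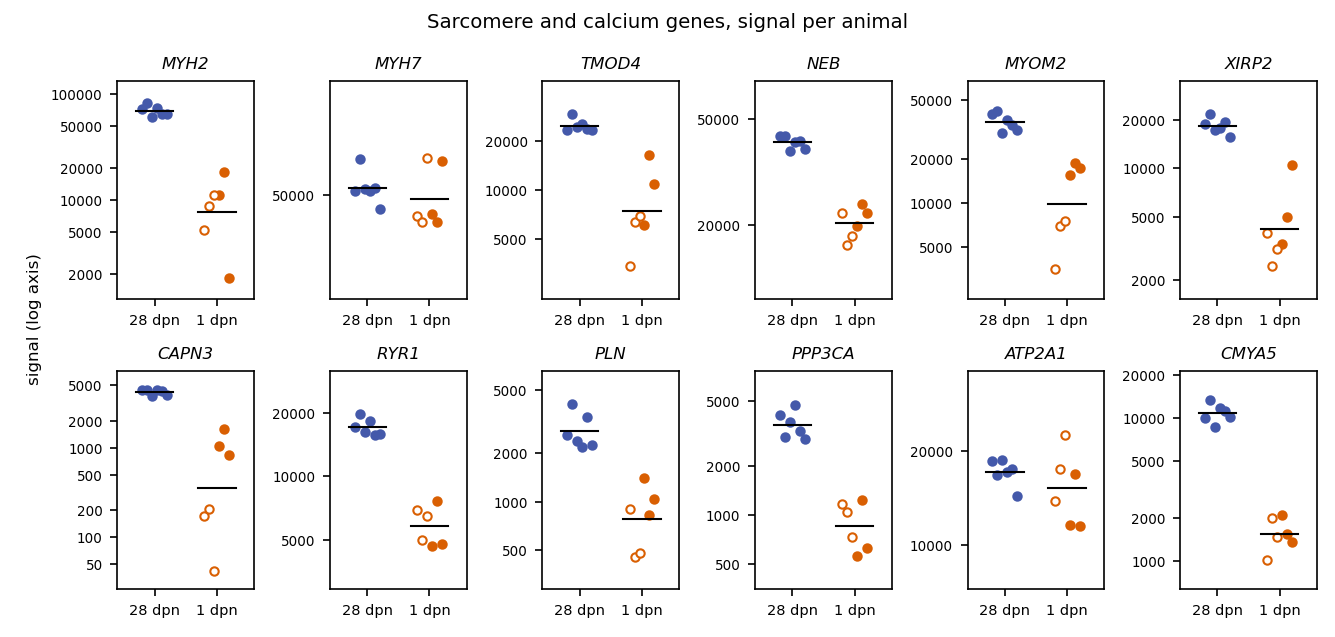
Signal per animal on a log axis for 12 sarcomere and calcium genes, 28 dpn left and 1 dpn right; open circles are the low 5′ arrays and bars are geometric means. MYH2 and CMYA5 lie apart between ages in all animals, MYH7 and ATP2A1 overlap, and CAPN3 and MYOM2 are lowest in the low 5′ arrays of 1 dpn.

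In the fit of all arrays calcium handling had the highest share of members called higher among the 52 lists. By genes that held, glycogen turnover, with 6 of 11, stood slightly above its 8 of 15. Of 15 measured genes 9 rose and 8 held, with a median difference of 0.84, and the other 6 did not pass. RYR1, the release channel of the sarcoplasmic reticulum, gave 15728 to 19658 with a median of 16742 at 28 dpn, against 4669 to 7647 with a median of 5736 at 1 dpn. The ages did not overlap, and the difference was 1.56 ± 0.17 (adjusted p = 1.4e-06), and 1.62 without the low 5′ arrays. CACNA2D1, a subunit of the voltage sensor that opens it, rose by 1.65 ± 0.32 and held.

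Calcium sensors and pump regulators rose beside the channel. PPP3CA, a catalytic subunit of the calcium-dependent phosphatase calcineurin, gave 2910 to 4751 at 28 dpn, against 563 to 1246 at 1 dpn (2.06 ± 0.27, adjusted p = 1.3e-05), and its counterpart PPP3CB rose by 1.07 ± 0.16. The calmodulin-dependent kinases CAMK2D and CAMK2G rose by 1.36 ± 0.24 and 0.84 ± 0.16. Phospholamban PLN, an inhibitor of the calcium pump best known in slow and cardiac muscle, gave 2186 to 4091 at 28 dpn, against 450 to 1398 at 1 dpn (1.82 ± 0.28), and S100A1, which binds the pump and the release channel, rose by 1.55 ± 0.30. All of these held. On their brightest probe sets the pumps did not pass, with differences of 0.17 ± 0.22 for ATP2A1, the fast-fibre isoform, and 0.30 ± 0.15 for ATP2A2, the slow-fibre isoform. ATP2A1 was called higher on the mean of its 2 probe sets, at 0.88, and ATP2A2 after quantile normalization, at 0.45, and without animal 3 of 1 dpn, at 0.40. ATP2A1 had mean signals of 1269 at 94 days post conception, 15147 at 1 dpn, 17086 at 28 dpn and 21261 at 188 dpn.

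Calpain 3, CAPN3, the muscle-specific protease anchored on titin, had the largest rise of all named genes, and its size depended on the arrays. It gave 3740 to 4469 with a median of 4325 at 28 dpn, against 42.0 to 1624 with a median of 520 at 1 dpn. At 1 dpn the low 5′ arrays gave 42.0 to 207 and the other 3 arrays 832 to 1624. The difference was 3.54 ± 0.56 (adjusted p = 0.00012) with all arrays and 1.90 without the low 5′ ones. Passing both fits was a condition of naming it among the largest rises. The mean of its 2 probe sets, at 1.82, also passed. Of 7 genes of calpains and their inhibitor 4 rose and 1 fell, and CAPN3 and CAPN7 held. CAST, the inhibitor calpastatin, rose by 1.20 ± 0.26 and did not hold (0.84), with 0.77 on the mean of its 5 probe sets. CAPN2, a widely expressed calpain, did not pass (-0.21 ± 0.18).

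Of 9 genes of creatine synthesis, creatine kinases and adenine nucleotide recycling 3 rose (GAMT, AMPD1 and ADSSL1), all 3 held, and the other 6 did not pass. GAMT, which methylates guanidinoacetate to creatine, gave 3811 to 5606 at 28 dpn, against 131 to 860 at 1 dpn (3.23 ± 0.32, adjusted p = 4.9e-07), with 2.54 without the low 5′ arrays. AMPD1 and ADSSL1 run 2 steps of the purine nucleotide cycle, deaminating AMP and rebuilding it from IMP. AMPD1 gave 24999 to 44201 with a median of 30503 at 28 dpn, against 4707 to 13905 with a median of 6791 at 1 dpn, and ADSSL1 gave 21957 to 28392 with a median of 25427 at 28 dpn, against 3222 to 7118 with a median of 5790 at 1 dpn. Neither gene overlapped between ages, and their differences were 2.08 ± 0.23 and 2.24 ± 0.24. The kinase of the sarcomere, CKM, and that of mitochondria, CKMT2, differed by 0.09 ± 0.14 and -0.24 ± 0.22 and did not pass. CKM read near the top of the scale at both ages, where a rise may not show.

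Of 11 measured glycogen genes 6 rose, all 6 held, and the other 5 did not pass, with a median difference of 0.93. STBD1, which tethers glycogen to membranes, gave 5348 to 7083 at 28 dpn, against 298 to 3000 at 1 dpn (2.71 ± 0.34). PHKB, a regulatory subunit of phosphorylase kinase, gave 6510 to 9348 at 28 dpn, against 1196 to 2949 at 1 dpn (2.08 ± 0.19, adjusted p = 1.7e-07). Phosphoglucomutase PGM1, which joins glycogen and glycolysis, was 3.50-fold higher, at 46521 to 63094 at 28 dpn and 7237 to 30639 at 1 dpn. UGP2, which makes the glucose donor, and GYG1, the primer of glycogen, rose by 1.29 ± 0.22 and 0.93 ± 0.16. In all 5 genes the ages did not overlap. FBP2, the muscle fructose bisphosphatase that runs carbon back toward glycogen, rose by 1.66 ± 0.31, and its mean was 717 at 94 days post conception, 7375 at 1 dpn, 23250 at 28 dpn and 19198 at 188 dpn. Phosphorylase itself, PYGM, was near the threshold on its brightest probe set (0.45 ± 0.16, adjusted p = 0.054), while the mean of its 4 probe sets gave 2.17.

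Among 20 glycolysis genes 9 rose and 1 fell, and 7 rises and the fall held. GPD1, the glycerol phosphate dehydrogenase that shuttles NADH, gave 15527 to 21614 at 28 dpn, against 1739 to 5941 at 1 dpn (2.46 ± 0.27, adjusted p = 1.5e-06). Phosphoglucose isomerase GPI gave 35804 to 46306 at 28 dpn, against 7291 to 15556 at 1 dpn (1.93 ± 0.19). The muscle phosphofructokinase PFKM gave 38224 to 48124 at 28 dpn, against 7499 to 34693 at 1 dpn (1.40 ± 0.24). These 3 held, with no overlap between ages.

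The liver-type isoform PFKL moved the other way, by -1.27 ± 0.29 (adjusted p = 0.0036), with 368 to 434 at 28 dpn, against 383 to 2127 at 1 dpn, and -2.02 without the low 5′ arrays. Further down the pathway TPI1 rose by 1.42 ± 0.21, PGK1 by 1.14 ± 0.18 and LDHA, the lactate dehydrogenase of fast fibres, by 1.19 ± 0.17, and all 3 held. LDHB, the heart-type partner, differed by -0.32 ± 0.16 and passed only without the low 5′ arrays, at -0.55. The lactate exporter SLC16A3 gave 3721 to 4721 at 28 dpn, against 295 to 2619 at 1 dpn. Its rise of 2.21 ± 0.40 held at 1.11, and its mean was 537 at 94 days post conception, 886 at 1 dpn, 4095 at 28 dpn and 849 at 188 dpn. GAPDH, the brightest gene of the list, did not pass on its brightest probe set (0.01 ± 0.14), which read 54827 to 83099 at 28 dpn, near the top of the scale, and was called higher on the mean of its 5 probe sets, at 0.55.

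**Figure D3:**
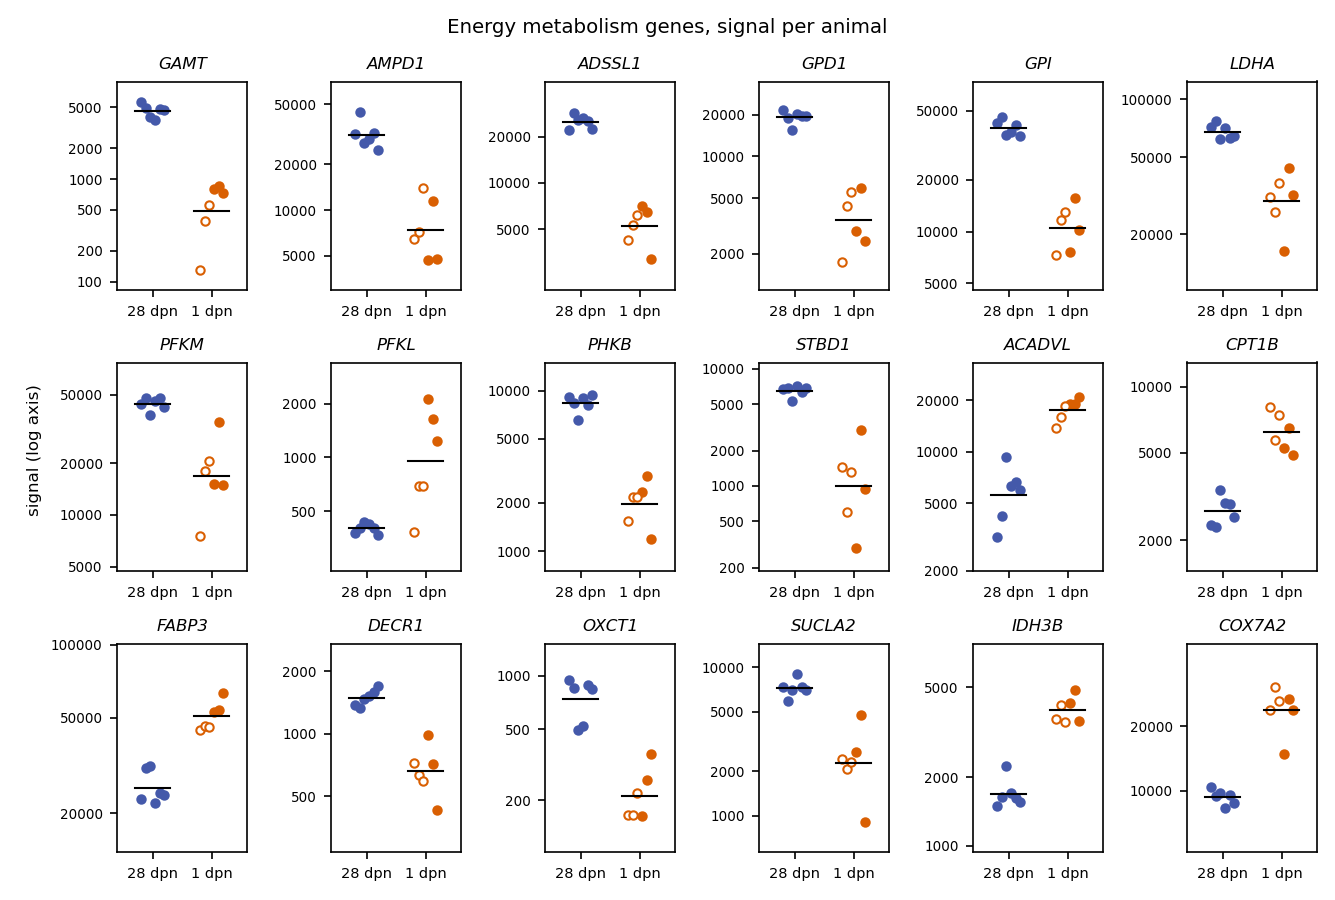
Signal per animal on a log axis for 18 genes of energy metabolism, 28 dpn left and 1 dpn right; open circles are the low 5′ arrays and bars are geometric means. Most glycogen and glycolysis genes lie higher at 28 dpn in all animals, while ACADVL, CPT1B, FABP3, IDH3B and COX7A2 lie lower.

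Fatty acid oxidation genes went both ways. Of 30 measured 7 rose and 5 fell, with 4 holding in each direction and a median of -0.06. CPT1B, the muscle enzyme that admits long-chain fatty acids to mitochondria, gave 2306 to 3404 at 28 dpn, against 4876 to 8066 at 1 dpn (-1.19 ± 0.23, adjusted p = 0.00074). ACADVL, which takes the first step on very long chains, gave 3181 to 9279 at 28 dpn, against 13726 to 20864 at 1 dpn (-1.65 ± 0.26), and the mean of its 2 probe sets gave -0.75. The carrier FABP3 was 1.97-fold lower, at 22062 to 31340 at 28 dpn, against 44513 to 63362 at 1 dpn, while HADHA, a subunit of the trifunctional enzyme, fell by 0.72 ± 0.15. CPT1B, ACADVL, HADHA and FABP3 held, and the ages did not overlap. FABP3 is counted in another list, PPAR targets and fuel switch. Of 16 measured genes of that list 2 rose and 5 fell, and 2 rises and 1 fall held, the fall being that of FABP3. FABP3 had means of 5692 at 94 days post conception, 50612 at 1 dpn, 25630 at 28 dpn and 8791 at 188 dpn, and CPT1B had 835, 6203, 2720 and 719 at the same stages, so that both were highest at 1 dpn of the 4 stages.

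Other enzymes of the fatty acid oxidation list rose. DECR1, needed for unsaturated chains, gave 1327 to 1704 at 28 dpn, against 428 to 985 at 1 dpn (1.18 ± 0.24). OXCT1, which lets muscle use ketone bodies, gave 498 to 947 at 28 dpn, against 163 to 364 at 1 dpn (1.79 ± 0.26). ACSL3 rose by 1.06 ± 0.22, and these 3 held with ages apart, whereas ACADM, for medium chains, rose by 0.93 ± 0.25 and did not hold (0.63). PDK4, the kinase that shuts pyruvate out of mitochondria when fat is burned, did not pass (0.03 ± 0.44), with 2904 to 10739 at 28 dpn and 2025 to 14776 at 1 dpn. The fat droplet protein PLIN2 fell by 1.16 ± 0.28 and did not hold, at -1.05. VLDLR, a receptor that brings in lipoprotein lipid, rose by 1.38 ± 0.19 and held, with 2.16 on the mean of its 2 probe sets. The nuclear receptor RXRG rose by 2.33 ± 0.55 and held at 1.97, with a 1 dpn mean of 72.3, just under the background level, and of 92.5 without the low 5′ arrays. The 28 dpn mean of RXRG stood 4.86-fold above the background level, which is no lower bound for the fit without the low 5′ arrays.

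Of 61 respiratory complex genes 11 fell (18.0%, against 13.4% of all genes) and 1 rose, 7 falls held and the median was -0.22. COX7A2, the widely expressed isoform of a cytochrome oxidase subunit, gave 8291 to 10416 at 28 dpn, against 14907 to 30272 at 1 dpn (-1.34 ± 0.15, adjusted p = 3.0e-06). The complex I subunits NDUFC2 and NDUFB2 fell by 0.96 ± 0.19 and 0.74 ± 0.15 and held. Of 27 citric acid cycle genes 4 rose and 2 fell (14.8% and 7.4%, against 13.3% and 13.4% of all genes). Of these SUCLA2, the ATP-forming subunit of succinyl-CoA synthetase, held at 1.68 ± 0.27 and IDH3B, a subunit of the NAD-linked isocitrate dehydrogenase, at -1.23 ± 0.15. Of 57 mitochondrial ribosomal proteins 12 fell and 4 rose (21.1% and 7.0%, against 13.4% and 13.3% of all genes), and 6 falls held. Among 19 genes of branched chain amino acid breakdown 5 rose and 2 fell (26.3% and 10.5%, against 13.3% and 13.4% of all genes). The rises of BCAT2, BCKDHB and HIBCH held. BCAT2, the mitochondrial transaminase of leucine, isoleucine and valine, gave 834 to 993 at 28 dpn, against 50.6 to 365 at 1 dpn, a difference of 2.64 ± 0.40, and 1.55 without the low 5′ arrays.

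**Figure D4:**
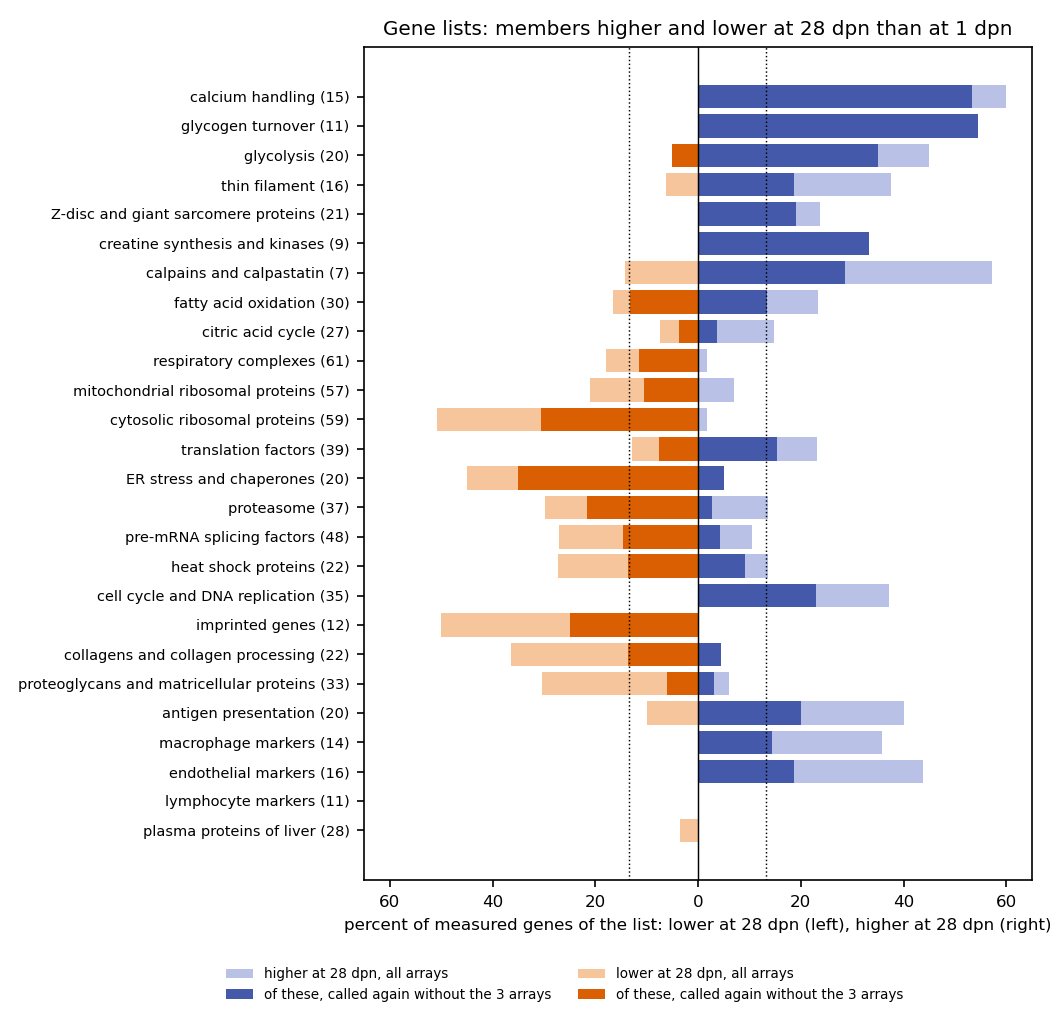
Percent of the measured genes of 26 lists that were lower (left) or higher (right) at 28 dpn, with the number measured in parentheses; dark bars are the genes that held without the low 5′ arrays and dotted lines are the shares over all genes, 13.4% and 13.3%. In the full bars calcium handling and the list of calpains and calpastatin reach furthest right, cytosolic ribosomal proteins and imprinted genes furthest left.

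Ribosomal and ER genes were called lower far more often than higher. Of 59 cytosolic ribosomal proteins 30 fell and 1 rose, 18 falls held and the median was -0.40. RPL3 had the largest fall, at 8463 to 10013 at 28 dpn and 23568 to 28618 at 1 dpn, a difference of -1.52 ± 0.14 (adjusted p = 1.5e-07), while RPS20, the brightest, did not pass (-0.28 ± 0.13). Of 20 genes of ER stress and chaperones 9 fell and 1 rose, 7 falls and the rise held and the median was -0.57. SEC61B, a subunit of the channel through which new proteins enter the ER, gave 1640 to 2983 at 28 dpn, against 3081 to 10332 at 1 dpn (-1.31 ± 0.22). SDF2L1, a stress-induced ER protein, was at least 4.14-fold lower, with a 28 dpn mean of 32.3, under the background level. The one rise was ATF4, a transcription factor of the amino acid response, by 1.49 ± 0.15 on its brighter probe set, and the mean of both probe sets gave 0.27 and was not called.

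Translation factors went both ways. Of 39, 9 rose and 5 fell (23.1% and 12.8%, against 13.3% and 13.4% of all genes), and 6 and 3 held. EIF4A2, a helicase of initiation, gave 22093 to 28441 at 28 dpn, against 5015 to 13122 at 1 dpn (1.50 ± 0.20, adjusted p = 1.8e-05). Its 1 dpn signals were 5015 to 7256 in the low 5′ arrays and 12422 to 13122 in the other 3, and the difference without the low 5′ arrays was 0.95. EIF4E2, a cap-binding protein that can hold back translation, fell by 1.40 ± 0.18 and held, with -0.53 on the mean of its 3 probe sets.

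Among 22 heat shock proteins 6 fell and 3 rose (27.3% and 13.6%, against 13.4% and 13.3% of all genes). Of these changes 3 falls and 2 rises held. HSPB7, a muscle chaperone, gave 1259 to 1730 at 28 dpn, against 5609 to 10983 at 1 dpn (-2.39 ± 0.21, adjusted p = 1.3e-07). Its mean was 572 at 94 days post conception, 7787 at 1 dpn, 1481 at 28 dpn and 2778 at 188 dpn. CRYAB and HSPB1 did not pass with all arrays (-0.72 ± 0.26 and -0.73 ± 0.28) and did without the low 5′ ones (-1.23 and -1.14) and in some other alternatives. HSPE1, the small partner of the mitochondrial chaperonin, fell by 1.47 ± 0.16 and held, while HSPH1 rose by 1.23 ± 0.31 and held.

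Of 37 proteasome genes 11 fell and 5 rose (29.7% and 13.5%, against 13.4% and 13.3% of all genes), and 8 falls and 1 rise held. PSMA7, a subunit of the core, gave 15712 to 21244 at 28 dpn, against 25345 to 49414 at 1 dpn (-1.01 ± 0.18, and -0.62 without the low 5′ arrays), and PSME4, an activator of the core, was the rise that held (0.96 ± 0.20). Of 48 splicing factors 13 fell and 5 rose (27.1% and 10.4%, against 13.4% and 13.3% of all genes), and 7 and 2 held. The falls included SNRPD1, a core protein of the splicing particles, by 1.07, and RBFOX2, a regulator of alternative exons, by 1.18, while HNRNPU, a nuclear scaffold protein, rose by 1.51.

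A few growth regulators changed by several fold. GHR, the growth hormone receptor, gave 337 to 527 at 28 dpn, against 13.3 to 225 at 1 dpn. The low 5′ arrays of 1 dpn gave 13.3 to 28.9, under the background level, and the other 3 had a mean of 148, above it. The rise of 2.98 ± 0.53 held at 1.46 without the low 5′ arrays. With all arrays the 1 dpn mean of GHR, 51.7, lay under the background level, and the 28 dpn mean stood 5.45-fold above that level. As the 1 dpn mean was under it only with the low 5′ arrays, 5.45-fold is no lower bound for the other 3. Of 17 genes of the IGF and growth hormone axis GHR and STAT5A rose (11.8%, against 13.3% of all genes). STAT5A did not hold (0.42) or pass on the mean of its 3 probe sets (0.32), and the other 15 did not pass, among them IGF2 (-0.26 ± 0.37) and IGF1 (0.75 ± 0.34). MSTN, the growth inhibitor myostatin, was at least 2.34-fold higher, at 77.0 to 339 at 28 dpn and 7.87 to 56.9 at 1 dpn. HES1, a Notch target that keeps precursor cells undifferentiated, gave 278 to 532 at 28 dpn, against 1228 to 2245 at 1 dpn (-1.95 ± 0.29, adjusted p = 5.6e-05). Both held.

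Of 15 myogenic regulators 4 rose and 2 fell (26.7% and 13.3%, against 13.3% and 13.4% of all genes). The transcription factor MEF2D fell by 0.89 ± 0.17 and its relative MEF2A rose by 0.69 ± 0.21, both holding with ages apart, and the mean of the 2 MEF2A probe sets gave 1.19. MYF6, the myogenic factor of mature fibres, rose by 1.35 ± 0.31 and did not hold (0.91), with 0.26, not called, on the mean of its 2 probe sets, while MYOD1 (-0.47 ± 0.22) and MYF5 (-0.96 ± 0.41) did not pass. NR3C1, the glucocorticoid receptor, gave 412 to 620 at 28 dpn, against 14.0 to 281 at 1 dpn, and its rise of 2.58 ± 0.54 held at 0.97. The mean of its 4 probe sets gave 0.67 and was not called.

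Of 12 imprinted genes 6 fell and the other 6 did not pass, with a median of -0.60, and 3 falls held. PLAGL1, a transcription factor of an imprinted growth network, gave 268 to 382 at 28 dpn, against 529 to 1807 at 1 dpn (-1.83 ± 0.27, adjusted p = 4.7e-05). Its mean was 3330 at 94 days post conception, 1109 at 1 dpn, 312 at 28 dpn and 149 at 188 dpn, lower at each later stage. The mean of its 3 probe sets gave a smaller fall, at -0.95. PHLDA2, known as a brake on placental growth, fell by 0.98 ± 0.21. NNAT fell by 1.21 ± 0.31 and was not called when only the 12 arrays were fitted. NDN and GNAS fell by 0.79 ± 0.16 and 1.59 ± 0.47 and did not hold. Without the low 5′ arrays NDN gave -0.44 ± 0.15 and GNAS -1.64 ± 0.60, so for GNAS the standard error grew and the difference did not shrink. The 28 dpn mean of GNAS, 53.0, lay under the background level, so its fall is given as at least 2.14-fold.

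Of 35 cell cycle and DNA replication genes 13 rose and the other 22 did not pass, 8 held, and the median was 0.57. CKS2, a small subunit bound to cyclin-dependent kinases, gave 578 to 1318 at 28 dpn, against 251 to 378 at 1 dpn (1.51 ± 0.26, adjusted p = 0.00026). H2AFZ, a variant histone and the brightest of the list, gave 6205 to 7444 at 28 dpn, against 2230 to 5767 at 1 dpn, a 2.15-fold rise, and the survivin gene BIRC5 rose by 1.30 ± 0.26. All 3 held. TOP2A, which untangles replicated DNA, gave 192 to 339 at 28 dpn, against 10.0 to 185 at 1 dpn, with 1 low value in animal 4. Its rise of 1.68 ± 0.55 was 2.45 without the low 5′ arrays and 1.62 to 1.68, and no longer called, when animal 1, 2, 4, 5 or 6 of 28 dpn was left out, and it was also not called when only the 12 arrays were fitted. Without animal 4 of 1 dpn it was 1.07 and still called. CDKN3, a phosphatase that acts on a cyclin-dependent kinase and no member of the list, moved against it, at 198 to 307 at 28 dpn and 766 to 2921 at 1 dpn (-2.26 ± 0.28). CCNG1, cyclin G, also outside the list, was 6.32-fold higher, at 12774 to 26556 at 28 dpn and 2441 to 5134 at 1 dpn. These are tissue samples, in which fewer cells of a type and less RNA per cell cannot be told apart.

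**Figure D5:**
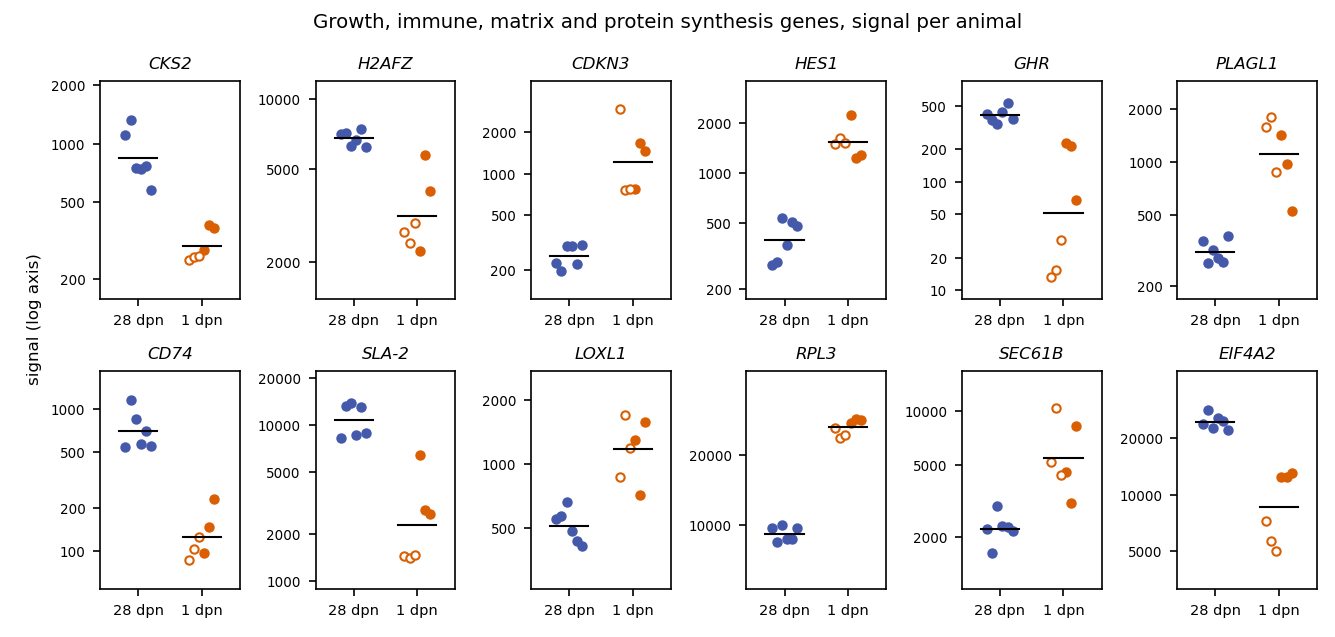
Signal per animal on a log axis for 12 genes of growth, antigen presentation, matrix and protein synthesis, 28 dpn left and 1 dpn right; open circles are the low 5′ arrays and bars are geometric means. CKS2, CD74 and SLA-2 lie higher and HES1, PLAGL1, LOXL1 and RPL3 lower at 28 dpn in all animals.

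Of 22 collagen genes 8 fell and 1 rose, and 3 falls held. LOXL1, which cross-links elastin, gave 414 to 660 at 28 dpn, against 714 to 1695 at 1 dpn (-1.19 ± 0.21, adjusted p = 0.00029). FKBP10, a collagen chaperone, fell by 1.29 ± 0.32, held at -0.84 and was not called when only the 12 arrays were fitted. COL6A3, the brightest collagen, did not pass (-0.07 ± 0.23). Of 33 proteoglycan and matricellular genes 10 fell and 2 rose, and 2 falls held. THBS1, thrombospondin, gave 215 to 1086 at 28 dpn, against 261 to 6334 at 1 dpn, and it fell by 2.62 ± 0.62 but did not hold (-2.23), with -0.92 on the mean of its 5 probe sets. COMP, the cartilage matrix protein, spread widely within each age, with 10.1 to 674 at 28 dpn and 71.1 to 15555 at 1 dpn. It fell by 4.10 ± 1.08 and did not hold at -3.56.

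Of 20 genes of antigen presentation 8 rose and 2 fell, and 4 rises held, with a median of 0.92. CD74, the invariant chain of class II molecules, gave 542 to 1157 at 28 dpn, against 85.8 to 233 at 1 dpn (2.49 ± 0.33, adjusted p = 1.4e-05). The class II chain SLA-DRA gave 2600 to 5442 at 28 dpn, against 306 to 2386 at 1 dpn (2.47 ± 0.46, and 1.52 without the low 5′ arrays). The class I chain SLA-2 gave 8221 to 13766 at 28 dpn, against 1411 to 6442 at 1 dpn (2.22 ± 0.41). In these 3, which held, the ages did not overlap. Within 1 dpn SLA-2 was 1411 to 1464 in the low 5′ arrays and 2679 to 6442 in the other 3. The array reads probes of a highly variable gene family, so the split of signal among SLA genes is uncertain. B2M, the constant partner of class I chains, differed by -0.47 ± 0.14 on its brightest probe set, which did not hold (-0.24), and by 0.35 on the mean of its 9, so its direction depended on the probe sets read.

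Some markers of other cells rose as well. Of 14 macrophage markers 5 rose, and CD74 and MARCO held, MARCO at least 1.34-fold higher, as its 1 dpn mean lay under the background level. CD74 is also a member of the antigen presentation list, so its rise is the same result counted again. The summed signal of the list was 6133 to 14521 at 28 dpn and 3146 to 7559 at 1 dpn, with 3146 to 3755 in the low 5′ arrays. C1QC, a complement protein made by macrophages, rose by 1.89 ± 0.54 and did not hold (0.87). Of 16 genes of the endothelial list 7 rose and 3 held, with a summed signal of 19657 to 23146 at 28 dpn and 13542 to 20391 at 1 dpn. VEGFA, the growth factor for vessels, gave 4880 to 7741 at 28 dpn, against 1706 to 3301 at 1 dpn (1.35 ± 0.15), with 0.63 on the mean of its 4 probe sets. It is a growth factor and no marker of endothelial cells, yet it is counted among the 7 and the 3. As the brightest of the list, with means of 6340 at 28 dpn and 2485 at 1 dpn, it is also part of the sum. PECAM1, a junction protein of vessel walls, rose by 0.67 ± 0.18 and did not hold (0.55), with 1.05 on the mean of its 2 probe sets. The endothelial receptor TIE1 was at least 3.41-fold higher and held. For the 11 lymphocyte markers limma made 0 calls in either direction and 1 at an unadjusted p under 0.05. Of the 11, 9 had means under the background level at both ages, so the lack of calls says little. The T cell marker CD3E and the leukocyte marker PTPRC had means under that level at both ages. Plasma proteins of liver gave 1 call among 28, ITIH3, which did not hold (-2.05) and was also lost without animal 1 or 3 of 1 dpn or animal 1 of 28 dpn, at -2.27 to -1.87, and on the mean of its 3 probe sets, at -0.85. How much these cell types took part in the antigen presentation and vessel results was not tested.

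Other genes were among the largest changes. Among rises that held, MSS51, a mitochondrial protein of fast muscle, gave 1289 to 3496 at 28 dpn, against 136 to 321 at 1 dpn (3.35 ± 0.26), and stood at 12099 at 188 dpn. EGF, the epidermal growth factor gene, gave 1766 to 5041 at 28 dpn, against 180 to 1397 at 1 dpn (3.27 ± 0.37). AP2B1, a subunit of the clathrin adaptor, was 9.10-fold higher, and BPGM, one of 11 erythroid markers, of which 4 rose and 1 fell, makes the bisphosphoglycerate that lowers oxygen binding of haemoglobin and was 7.96-fold higher. The import receptor KPNA3 and the aspartyl-tRNA synthetase DARS rose by 2.93 ± 0.26 and 3.10 ± 0.50, with 1.62 for DARS without the low 5′ arrays and 0.98 on the mean of its 2 probe sets. GNLY, a granule protein of cytotoxic cells, rose by 2.57 ± 0.69 and by 3.27 without them.

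Among falls that held, MYO5B, an unconventional myosin of vesicle transport, gave 71.3 to 240 at 28 dpn, against 647 to 1767 at 1 dpn (-3.04 ± 0.38, adjusted p = 7.6e-06). Its mean was 90.6 at 94 days post conception and 55.7 at 188 dpn, so that 1 dpn stood above the stages on either side. RETSAT, a retinol saturase, gave 1138 to 2653 at 28 dpn, against 4227 to 11367 at 1 dpn (-1.94 ± 0.26). UBXN6, a cofactor of the ATPase that extracts ubiquitinated proteins, fell by 1.91 ± 0.23, NME1, a nucleoside diphosphate kinase, by 1.74 ± 0.23, NPM3, a nucleolar chaperone, by 1.68 ± 0.20 and HEMK1, a methyltransferase of mitochondrial release factors, by 1.69 ± 0.19. NANOS1, a translational repressor, fell by 2.04 ± 0.40, with -0.97 on the mean of its 2 probe sets. The probe set named NLN fell by 1.94 ± 0.16, but its 5 probe sets differed and their mean gave -0.80. IGSF1 fell by 1.88 ± 0.24 on 1 of 2 probe sets whose mean, -0.59, was not called. The loci LOC396711 and LOC100521518 fell by 2.11 ± 0.56 and 1.70 ± 0.18, and LOC396711 was not called with only the 12 arrays or with the mean of its 2 probe sets (-1.12).

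Other large changes were called with all arrays and did not hold. C4BPA, a complement inhibitor, gave 2323 to 6369 at 28 dpn, against 148 to 722 at 1 dpn, with no overlap. Its difference was nearly the same in both fits, with a larger standard error in the second (3.15 ± 0.81 and 3.00 ± 1.05). ACOT7, an acyl-CoA thioesterase, likewise had no overlap, at 124 to 212 at 28 dpn, against 349 to 1926 at 1 dpn, a difference of -2.51 ± 0.57 with all arrays and -1.80 without the low 5′ ones. For 3 genes most of the difference lay in the low 5′ arrays. FCGR3A, an antibody receptor, differed by 2.59 ± 0.76 with all arrays and by 0.97 without them, and the mean of its 2 probe sets, 0.84, was not called. CNOT7, a deadenylase, differed by 2.48 ± 0.66 and 0.65, and RBPJ, the DNA-binding partner of Notch, by 2.19 ± 0.59 and 0.70 in the same 2 fits. Without animal 3 of 1 dpn alone RBPJ differed by 1.45, and the mean of probe sets gave 1.26 for RBPJ and 0.50, not called, for CNOT7. At 1 dpn CNOT7 gave 10.1 to 105 in the low 5′ arrays and 186 to 565 in the other 3, which reached the 28 dpn range of 435 to 724. The antiprotease SLPI rose by 2.87 ± 0.80 and the interferon-induced OAS1 by 2.13 ± 0.66, with 1.76 and 1.74 without the low 5′ arrays. OAS1 was also not called without animal 1 or 3 of 1 dpn or animal 2 or 5 of 28 dpn, at 1.89 to 2.03.

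Enzymes that make serine and asparagine stood apart in the low 5′ arrays in the other direction. PSAT1 and ASNS were chosen after their values were seen. PHGDH, the first enzyme of serine synthesis, gave 65.2 to 309 at 28 dpn and at 1 dpn 1406 to 1498 in the low 5′ arrays and 71.7 to 946 in the other 3. It fell by 2.18 ± 0.66 and did not hold (-1.04), nor did it pass without animal 1, 2 or 3 of 1 dpn or animal 2 or 3 of 28 dpn, at -1.96 to -1.94. PSAT1, the next enzyme, gave 334 to 1270 at 28 dpn and at 1 dpn 6597 to 8859 in the low 5′ arrays and 505 to 3489 in the other 3. Asparagine synthetase ASNS gave 1976 to 5266 at 28 dpn and at 1 dpn 6431 to 9412 and 386 to 2503 in the same 2 sets. PSAT1 missed the threshold narrowly (-1.72 ± 0.62, adjusted p = 0.052) and passed in several alternatives, but gave -0.32 without the low 5′ arrays, while ASNS did not pass (0.00 ± 0.53). In both genes the 2 sets of 1 dpn animals did not overlap, with 3 animals in each. As both were chosen with these values seen, this describes them and tests nothing. The share of all genes without overlap between these 2 sets was not computed. Among the imprinted RNAs, MEG3 was low in the low 5′ arrays, at 161 to 249, against 1440 to 2027 in the other 3 of 1 dpn and 354 to 882 at 28 dpn. It did not pass with all arrays (0.13 ± 0.52) and fell by 1.44 without them, and by 0.79 on the mean of its 2 probe sets.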

How the data were processed

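The deposited values are 1 signal intensity per probe set and array from the scanner software GCOS 1.1.1, per the submitters' processing notes. Tested on the values, they are linear and each array's mean without the 2% of probe sets at each end is close to 500, so the authors had scaled the arrays to one another. The summary settings are not given in the sources used here.

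Of 24118 probe sets 183 controls were left out. Log2 signals of all 24 arrays were fitted with 4 stage means in limma 3.58.1 (R 4.3.3), with Benjamini-Hochberg adjustment over 23935 probe sets. Symbols came from the platform annotation: 10069 probe sets had 1, 198 several and 13668 none. The background level, 74.7, is the 95th percentile of 17 Tag controls. A fold against a stage under it is a lower bound for the arrays in that mean.

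Named genes are the 15 largest rises and falls that held with a higher-stage signal of at least 500, up to 6 changed members, the brightest and counterparts of each list discussed, and 10 lost calls. LDHA, PGK1, PSAT1, ASNS, PDK4, ALB, CD3E, PTPRC, CRYAB and HSPB1 were named after their values were seen. Members and lists were chosen with earlier results of these data known. The fit was tested on simulated data. Alternatives were other scalings, an added constant of 16, a filter on dim probe sets, other samples and the mean of probe sets.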

Additional observations from a re-analysis of the deposited data

Results flagged for a closer look

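Single animals stood apart from the other 5 of their age, by a gap on the log2 scale past Dixon's critical value, in 18 of 328 gene and age pairs, and chance flags about 1 in 20. At 28 dpn animal 3 was low for EGF (1766), STBD1 (5348), CCNG1 (12774) and MEF2D (1940) and high for IDH3B (2236). Animal 2 of 28 dpn was high for ATF4 (41285) and low for NANOS1 (72.4), PSAT1 (334) and HNRNPU (254). Animal 1 of 28 dpn was high for PECAM1 (4349) and MYOD1 (1506) and low for ITIH3 (9.32), and animal 6 was low for GNAS (21.6). At 1 dpn animal 5 was low for THBS1 (261) and high for STAT5A (1068), animal 4 was low for COX7A2 (14907) and TOP2A (10.0), and animal 6 was low for HEMK1 (687).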

How the results depend on the processing

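With only the 12 arrays of both ages, limma called 1749 probe sets higher and 1342 lower, and 452 genes in both directions combined were called again without the low 5′ arrays, against 955 with all stages. Without the low 5′ arrays 1239 probe sets were lower, 567 of them by at least 2-fold. Leaving out each animal in turn gave 2357 to 2977 probe sets higher and 1837 to 2411 lower, 1531 to 1909 and 783 to 1100 at 2-fold, and 711 to 993 genes called again. Of called probe sets 56.0% were higher with the deposited scaling, 52.6% after quantile normalization and 49.5% after setting every array to a common median. Of 164 named genes 134 were called, and 101 of these kept the call in every alternative run. MEG3 turned to -1.44 without the low 5′ arrays and to -0.79 with the mean of its probe sets, and B2M to 0.35 with the mean of its probe sets. The cause was not tested. The number of arrays limits the precision, and 39.2% of probe sets had a mean under the background level. No paired analysis was possible because animals were numbered in sample order and the labels pair none across ages.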
